A study of Rattus norvegicus with 16 samples.

Results

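The extracellular matrix genes described here are 45 named genes of collagen, elastic fibre, crosslinking, matricellular, proteoglycan and matrix turnover biology. Members were found by symbol among probe sets annotated to exactly 1 gene, and 38 of the 45 were measured, out of 14506 genes in all. Col4a2, Col6a1, Col6a3, Col15a1, Col18a1, Tnc and Thbs2 were not measured. By role, the measured members were 5 of 5 fibrillar collagens, 3 of 8 other collagens, 10 of 10 elastic fibre genes, 5 of 5 crosslinking enzymes, 7 of 9 matricellular and adhesive glycoproteins, 4 of 4 proteoglycans and 4 of 4 matrix proteases and inhibitors.

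Right lungs of 16 male Sprague-Dawley rats, 1 Affymetrix rat gene array per rat, formed 4 groups of 4. The normoxia group had no hypoxia and no drug. The hypoxia group spent 2 weeks in a hypobaric chamber at 362 mmHg, which matches 10% oxygen at sea level and is a standard way to raise pulmonary artery pressure in rats. The group labelled hypoxia+estrogen, called the estradiol group here, had the same hypoxia plus 17β-estradiol, the main circulating estrogen, at 75 µg/kg/day from a subcutaneous osmotic pump, which ran for 3 weeks in all and for 1 week before the hypoxia. In the group labelled hypoxia+estrogen+fulvestrant, the fulvestrant group here, hypoxia and estradiol were combined with fulvestrant, an antagonist of the nuclear estrogen receptors, at 3 mg/kg/day by injection under the skin. All rats were males, whose own estrogen is low, and whether rats of the normoxia and hypoxia groups had empty pumps is not stated in the labels. Values are log2 signals after RMA, an array normalization, so a difference of 1 is a 2-fold change, and a gene is called when limma's adjusted p is below 0.05.

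Before the results, 3 limits of single arrays apply. The title of normoxia replicate 4 says normoxia but hypoxia stands in its treatment field. It stayed with normoxia, and results are also given with it left out or counted as hypoxia. Its summed signal of lymphocyte markers was 1.14 times the normoxia mean, which includes this array, against 0.51 to 0.64 on the hypoxia arrays. For neutrophil markers it was 1.18 against 0.45 to 0.83, and for macrophage markers 1.02 against 1.13 to 1.69. Its erythrocyte, mesothelial and cartilage signals lay inside the hypoxia range. Which label is right was not tested. Estradiol replicates 2 and 3 stood apart in neutrophil markers, whose summed signal was 2.25 and 2.57 times the normoxia mean, against 1.18 and 1.21 times in estradiol replicates 1 and 4. The normoxia arrays differed among themselves in the matrix genes: replicates 2 and 3 were above the median of the 4 arrays in 31 and 34 of the 38 members, and replicates 1 and 4 in 6 and 5. The summed signal of 10 markers of alveolar and airway epithelium lay between 0.90 and 1.03 times the normoxia mean on all 16 arrays. Being relative to normoxia, it compares the groups and cannot identify the tissue. Hopx, an alveolar type 1 cell marker, had a mean log2 signal of 13.17 in normoxia. The labels give no batch or date, so batches are unknown and their part in a group difference cannot be told.

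Collagen chains are hydroxylated and folded inside the cell, secreted, and then joined to each other by lysyl oxidases, which act on lysines that lysyl hydroxylases may have modified first. Elastic fibres are assembled from elastin on a scaffold of fibrillin microfibrils, with fibulins, emilins and latent TGF-beta binding proteins as helpers, and the same lysyl oxidases crosslink elastin. In the lung many of these genes are expressed mainly by fibroblasts, smooth muscle cells and pericytes, and some, such as Col8a1, also by endothelium. Thickening of the walls of small pulmonary arteries in chronic hypoxia is known to include deposition of matrix.

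The RefSeq table (build GRCr8) held exactly 1 promoter for 23 of the 38 measured members, among them 11 of the 14 called between hypoxia and normoxia. The 250 bases before the annotated start are shown for 4 of the 6 genes that were called higher in hypoxia in all 8 fits that left out 1 array of these groups, as the regulatory DNA beside the transcript values: Ccn2, a matricellular gene with the highest difference, the crosslinking enzymes Plod2 and Loxl1, and Ltbp2 of the elastic fibre. Capitals mark matches, on either strand, to ACGTG or GCGTG (core of the hypoxia-inducible factor site), GGTCA (core of the estrogen response element), CAGAC (SMAD, the TGF-beta pathway) and GGAATG (TEAD, the Hippo pathway).
Ccn2 (chr1:22624615-22624864, minus strand): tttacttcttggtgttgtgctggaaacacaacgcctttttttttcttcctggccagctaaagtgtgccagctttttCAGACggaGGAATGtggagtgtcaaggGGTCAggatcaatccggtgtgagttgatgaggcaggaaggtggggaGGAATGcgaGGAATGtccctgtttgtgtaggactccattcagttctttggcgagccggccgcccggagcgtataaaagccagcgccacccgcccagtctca
Plod2 (chr8:101964068-101964317, plus strand): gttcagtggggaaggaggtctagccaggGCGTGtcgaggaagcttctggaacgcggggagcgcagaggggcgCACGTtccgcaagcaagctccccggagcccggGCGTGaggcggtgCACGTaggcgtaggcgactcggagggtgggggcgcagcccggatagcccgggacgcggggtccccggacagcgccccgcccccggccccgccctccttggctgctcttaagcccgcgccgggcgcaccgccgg
Loxl1 (chr8:67612225-67612474, minus strand): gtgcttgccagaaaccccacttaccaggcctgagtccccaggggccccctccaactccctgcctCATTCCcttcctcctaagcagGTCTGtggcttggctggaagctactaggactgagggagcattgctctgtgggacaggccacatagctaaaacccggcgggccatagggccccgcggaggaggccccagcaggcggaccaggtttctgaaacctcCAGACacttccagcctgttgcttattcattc
Ltbp2 (chr6:110257299-110257548, minus strand): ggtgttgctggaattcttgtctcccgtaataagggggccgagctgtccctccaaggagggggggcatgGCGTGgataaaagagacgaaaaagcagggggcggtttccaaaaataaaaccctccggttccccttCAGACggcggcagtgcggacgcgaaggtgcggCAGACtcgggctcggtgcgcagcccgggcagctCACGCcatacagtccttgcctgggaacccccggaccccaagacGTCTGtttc

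Counting -1 as the base before the start, Ccn2 had GGAATG from -166, -101 and -92, CAGAC from -174 and GGTCA from -147. Plod2 was the only one of the 23 members with ACGTG, on the opposite strand from -178 and -133, and it also had GCGTG from -222 and -146. In Loxl1 GGAATG stood on the opposite strand from -186 and CAGAC began at -165 on the opposite strand and at -31. The Ltbp2 window had GCGTG from -182 and, on the opposite strand, from -52, with CAGAC from -117, -85 and, on the opposite strand, -9. Among 33360 distinct promoters of the same length, ACGTG or GCGTG was found in 36.8%, GGTCA in 35.4%, CAGAC in 43.0% and GGAATG in 12.1%. The 23 members held ACGTG or GCGTG in 10, GGTCA in 6, CAGAC in 14 and GGAATG in 6. Of the 10 members with a promoter that were called higher in hypoxia, 5 had ACGTG or GCGTG, 3 had GGTCA, 5 had CAGAC and 3 had GGAATG. The windows of Srpx and Fbln2 had no match to these letters. A match is a description of the sequence and says nothing of binding.

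**Figure D1:**
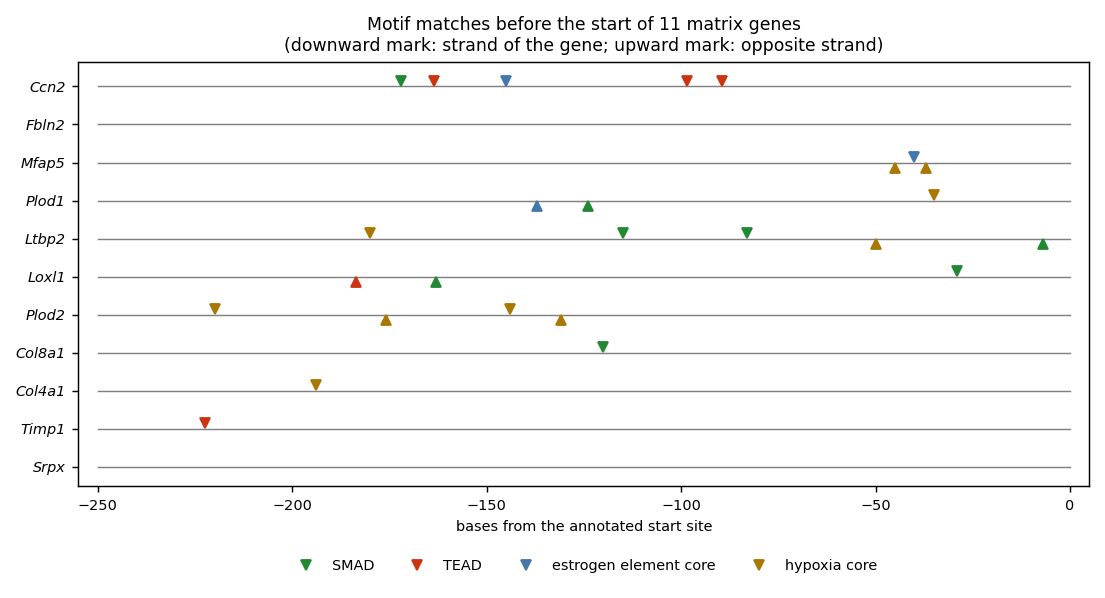
Matches to the searched motifs in the 250 bases before the start of 11 matrix genes called between hypoxia and normoxia, by distance in bases from the annotated start site; downward marks lie on the strand of the gene and upward marks on the opposite strand. The hypoxia core stands for ACGTG and GCGTG together, the Ccn2 window has 3 TEAD matches, and Srpx and Fbln2 have no mark.

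Hypoxia against normoxia gave the most calls among the matrix genes. Of the 38 members 13 were higher in hypoxia and 1 was lower, which is 34.2% higher where 3.21% of all 14506 genes were called higher, and 2.63% lower where 2.43% of all genes were called lower. The median log2 difference of the members was 0.32, against 0.03 over all genes, and 35 of 38 differences were above 0. The members were also brighter, with a median log2 signal of 11.19 against 8.62 over all genes. Shares among genes of like brightness were not computed, here or in the comparisons below. The members called higher were crosslinking enzymes (Plod2, Loxl1, Plod1), non-fibrillar collagens (Col4a1, Col8a1), elastic fibre genes (Ltbp2, Mfap5, Emilin1), matricellular and adhesive genes (Ccn2, Srpx, Fn1) and the turnover genes Timp1 and Mmp14, and the member called lower was Fbln2. All 4 hypoxia arrays were above all 4 normoxia arrays in 13 members and below in 1, where the arrays of 6.74% of all genes were apart upwards and 5.33% downwards. Leaving out 1 array moved the count of members called higher from 13 to between 6 and 15: it was 6, 8 and 7 without normoxia replicates 1, 2 and 4, and 6, 7 and 7 without hypoxia replicates 1, 2 and 4. It was 7 when all probe sets were tested and 7 when the fit held these 2 groups alone. When normoxia replicate 4 was moved to hypoxia, 0 of the 38 members were called in either direction, and all 14 differences kept their sign, from 0.17 to 0.68 upwards and -0.56 for Fbln2, with a member median of 0.18. Over the 8 fits that left out 1 array, Ccn2, Plod2, Ltbp2, Loxl1, Col4a1 and Col8a1 were called in all 8 and Srpx in 6. Fbln2 was called in 4 of them, Timp1 in 3, Emilin1 and Fn1 in 2, and Mfap5, Plod1 and Mmp14 in 1.

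**Figure D2:**
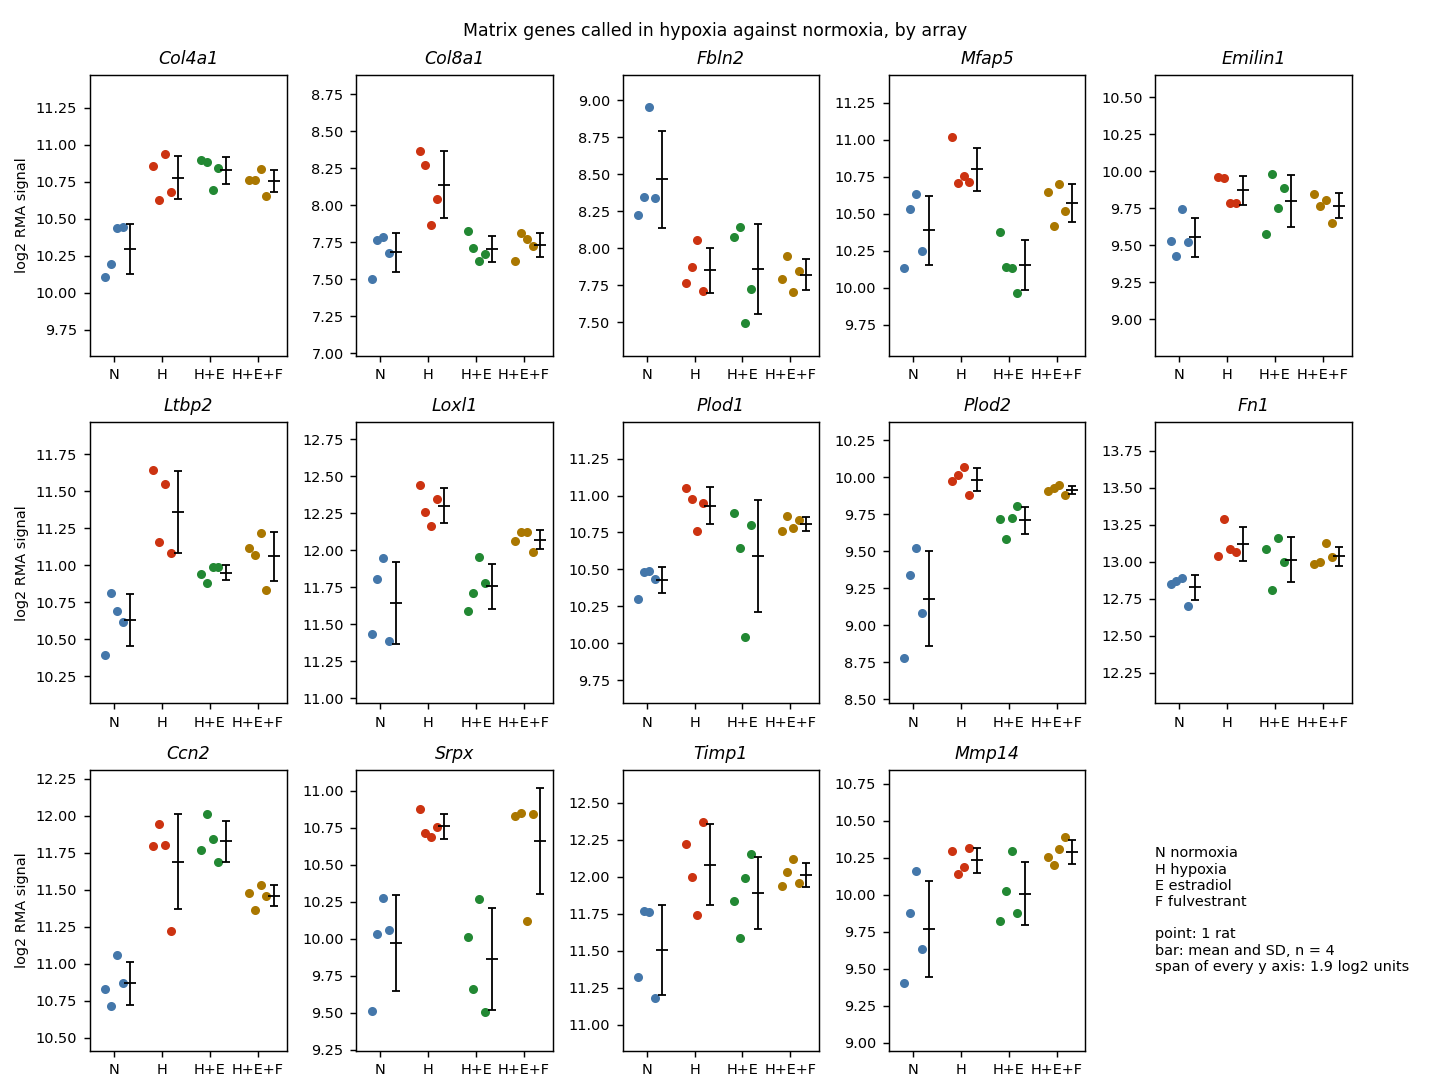
Log2 RMA signal of the 14 matrix genes called between hypoxia and normoxia, 1 point per rat, in normoxia (N), hypoxia (H), hypoxia with estradiol (H+E) and hypoxia with estradiol and fulvestrant (H+E+F); bars show mean and SD (n = 4) and every panel spans the same 1.9 log2 units. In Plod2 the hypoxia arrays lie between 9.88 and 10.07, above the normoxia arrays at 8.78 to 9.52, and in Srpx the estradiol arrays, at 9.51 to 10.27, lie below all hypoxia arrays.

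None of the 5 fibrillar collagens was called. Col1a1 and Col1a2 encode the chains of type I collagen, the main tensile fibre of the lung and vessel wall. Col1a1, with the largest difference of its role group, had log2 signals of 10.63, 11.53, 11.89 and 11.36 in normoxia, 11.66, 11.83, 11.94 and 11.45 in hypoxia, 11.51, 11.27, 11.48 and 11.11 in the estradiol group and 11.55, 11.33, 11.80 and 11.53 in the fulvestrant group. Hypoxia and normoxia overlapped, with normoxia replicate 1 the lowest of the 16 arrays, and the difference of 0.37 (SE 0.20) was not called (adjusted p = 0.315). Col1a2 differed by 0.32 (SE 0.15, adjusted p = 0.234). The 3 others were closer to 0: Col3a1, the type III chain of distensible tissue, differed by 0.07, and Col5a1 and Col5a2, type V chains that limit fibril diameter, by 0.12 and 0.06.

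Among the other collagens, Col4a1 and Col8a1 were higher in hypoxia and Col14a1 was not called (difference 0.19, adjusted p = 0.704). Col4a1, a chain of the type IV network of basement membranes, had signals of 10.11, 10.19, 10.44 and 10.44 in normoxia, 10.86, 10.63, 10.94 and 10.68 in hypoxia, 10.90, 10.88, 10.70 and 10.84 in the estradiol group and 10.76, 10.76, 10.84 and 10.65 in the fulvestrant group. Every array of the 3 hypoxic groups was above every normoxia array. Its difference between hypoxia and normoxia was 0.48 (SE 0.09), or 1.40-fold (adjusted p = 0.00378). Col8a1 encodes a short-chain collagen made by vascular smooth muscle and endothelium, and its signals were 7.50, 7.77, 7.79 and 7.68 in normoxia, 8.37, 8.27, 7.87 and 8.04 in hypoxia, 7.83, 7.71, 7.62 and 7.67 in the estradiol group and 7.62, 7.81, 7.77 and 7.73 in the fulvestrant group. The hypoxia arrays were the 4 highest of the 16. Col8a1 rose by 0.46 (SE 0.10), 1.37-fold, in hypoxia (adjusted p = 0.0107).

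Of the 10 elastic fibre genes 3 rose and 1 fell in hypoxia. Ltbp2, a latent TGF-beta binding protein that associates with microfibrils, measured 10.40, 10.81, 10.69 and 10.61 in normoxia, 11.64, 11.16, 11.55 and 11.09 in hypoxia, 10.94, 10.88, 10.99 and 10.99 in the estradiol group and 11.12, 11.07, 11.22 and 10.83 in the fulvestrant group. All hypoxic arrays lay above all normoxia arrays, and within hypoxia replicates 1 and 3 were the high ones. The hypoxia difference of Ltbp2 was 0.73 (SE 0.12), 1.66-fold (adjusted p = 0.00196). Mfap5, a microfibril-associated glycoprotein, gave 10.14, 10.53, 10.63 and 10.25 in normoxia, 11.02, 10.71, 10.76 and 10.72 in hypoxia, 10.37, 10.14, 10.13 and 9.96 in the estradiol group and 10.65, 10.42, 10.70 and 10.52 in the fulvestrant group. The hypoxia arrays were again the 4 highest. It rose by 0.41 (SE 0.11, adjusted p = 0.0467). Emilin1, which sits at the interface of elastin and microfibrils, read 9.53, 9.43, 9.74 and 9.52 in normoxia and 9.96, 9.95, 9.79 and 9.78 in hypoxia, a difference of 0.32 (SE 0.09, adjusted p = 0.047). The lowest hypoxia array, replicate 4, was just above the highest normoxia array, replicate 3. Emilin1 gave 9.57, 9.98, 9.75 and 9.88 in the estradiol group and 9.85, 9.76, 9.80 and 9.65 in the fulvestrant group.

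Fbln2, a fibulin of vessel walls and basement membranes, went the other way. Signals of 8.22, 8.35, 8.95 and 8.34 in normoxia stood against 7.77, 7.87, 8.05 and 7.71 in hypoxia, 8.08, 8.14, 7.49 and 7.72 in the estradiol group and 7.79, 7.95, 7.70 and 7.85 in the fulvestrant group. No hypoxic array of any group reached the lowest normoxia array. Fbln2 fell by 0.62 on the log2 scale (SE 0.15, 1.53-fold, adjusted p = 0.0291), and by 0.45 without normoxia replicate 3, its highest array, where it was no longer called (highest adjusted p over the fits leaving out 1 array 0.0873). The other 2 fibulins had differences above 0: Fbln5, which tethers elastin to cells, differed by 0.40 with arrays that did not overlap but was just short of the threshold (adjusted p = 0.0602), and Fbln1 by 0.23 (adjusted p = 0.365). Eln, elastin itself, differed by 0.37 (SE 0.17, adjusted p = 0.22) and Fbn1, the main fibrillin, by 0.32 (adjusted p = 0.159). Mfap2 and Mfap4 were at 0.10 and -0.06.

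Crosslinking enzymes had the largest median difference of the role groups, 0.50 over 5 genes, of which 3 rose. Plod2 encodes a lysyl hydroxylase that modifies the ends of collagen chains and so sets which crosslinks form, and is a known target of hypoxia-inducible factor. Plod2 signals were 8.78, 9.34, 9.52 and 9.08 in normoxia, 9.97, 10.01, 10.07 and 9.88 in hypoxia, 9.72, 9.58, 9.72 and 9.81 in the estradiol group and 9.91, 9.93, 9.95 and 9.88 in the fulvestrant group. All 12 hypoxic arrays were above all normoxia arrays, and the hypoxia arrays varied little (9.98 ± 0.08, SD, n = 4) beside the normoxia arrays (9.18 ± 0.32, SD, n = 4). The difference was 0.80 (SE 0.11), 1.75-fold (adjusted p = 0.000582). Plod1, the lysyl hydroxylase of the helical part of the chain, read 10.30, 10.48, 10.49 and 10.43 in normoxia, 11.05, 10.97, 10.76 and 10.95 in hypoxia, 10.88, 10.64, 10.04 and 10.80 in the estradiol group and 10.76, 10.86, 10.78 and 10.83 in the fulvestrant group. Hypoxia and normoxia did not overlap, and estradiol replicate 3 was the lowest of all 16 arrays. Plod1 rose by 0.50 (SE 0.13), 1.42-fold, in hypoxia (adjusted p = 0.0372).

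Loxl1, the lysyl oxidase of elastin homeostasis, had signals of 11.43, 11.80, 11.95 and 11.39 in normoxia, 12.44, 12.26, 12.16 and 12.34 in hypoxia, 11.59, 11.71, 11.95 and 11.77 in the estradiol group and 12.06, 12.12, 12.12 and 11.99 in the fulvestrant group. The hypoxia arrays were the 4 highest, fulvestrant arrays the next 4, and normoxia and estradiol arrays were mixed below them. Loxl1 rose by 0.66 (SE 0.11), 1.58-fold, in hypoxia (adjusted p = 0.00259). Lox, the founding member of the family, differed by 0.25 (SE 0.11, adjusted p = 0.194), with normoxia replicate 1 at 11.69 inside the range of the hypoxia arrays. Loxl2, which acts on basement membrane collagen, differed by 0.08 (adjusted p = 0.852).

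Among the matricellular and adhesive glycoproteins 3 of 7 rose. Ccn2 (connective tissue growth factor) is a secreted target of TGF-beta and of the Hippo pathway. Ccn2 measured 10.83, 10.71, 11.06 and 10.87 in normoxia, 11.79, 11.94, 11.81 and 11.22 in hypoxia, 11.77, 12.01, 11.84 and 11.69 in the estradiol group and 11.48, 11.36, 11.53 and 11.46 in the fulvestrant group. All hypoxic arrays were above all normoxia arrays, and hypoxia replicate 4 was the lowest of them. The difference of 0.82 (SE 0.12), 1.77-fold, was the highest of the 38 members (adjusted p = 0.000953). Srpx, a secreted protein with sushi repeats, had signals of 9.51, 10.03, 10.28 and 10.06 in normoxia, 10.88, 10.71, 10.69 and 10.75 in hypoxia, 10.01, 9.66, 10.27 and 9.51 in the estradiol group and 10.83, 10.85, 10.12 and 10.84 in the fulvestrant group. The hypoxia arrays were apart from both the normoxia and the estradiol arrays, and fulvestrant replicate 3 stood with the latter. Srpx rose by 0.79 (SE 0.19), 1.73-fold, in hypoxia (adjusted p = 0.0227).

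Fn1, fibronectin, which links collagen to cell surface integrins, read 12.85, 12.87, 12.89 and 12.70 in normoxia, 13.04, 13.29, 13.09 and 13.06 in hypoxia, 13.09, 12.81, 13.16 and 13.00 in the estradiol group and 12.99, 13.00, 13.13 and 13.04 in the fulvestrant group. Normoxia and hypoxia did not overlap, and the rise was small, 0.29 (SE 0.08) or 1.23-fold (adjusted p = 0.0376). The 4 others were not called. Thbs1, an activator of latent TGF-beta, differed by 0.40 (SE 0.22, adjusted p = 0.331). Ccn1, a relative of Ccn2, differed by 0.35 (SE 0.30, adjusted p = 0.553) with hypoxia arrays from 10.71 to 12.31, the widest spread of the members. Sparc and Postn, which bind collagen, were at 0.13 (adjusted p = 0.196) and 0.03 (adjusted p = 0.873).

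No proteoglycan was called. Vcan, versican, had the largest difference of the 4, with signals of 8.04, 9.06, 9.23 and 8.71 in normoxia, 9.23, 9.14, 8.87 and 9.41 in hypoxia, 9.29, 8.58, 9.15 and 8.81 in the estradiol group and 9.33, 9.16, 9.62 and 9.37 in the fulvestrant group. Normoxia replicate 1 was far below the rest and the groups overlapped, and the difference of 0.40 (SE 0.21) did not pass (adjusted p = 0.312). Bgn, biglycan, was higher on every hypoxia array than on every normoxia array by a small amount, 0.22 (SE 0.06), just short of the threshold (adjusted p = 0.0607). Dcn, decorin, which coats collagen fibrils, was at -0.18 (adjusted p = 0.685) and Lum, lumican, at 0.13 (adjusted p = 0.858).

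Both a protease and an inhibitor rose. Timp1 inhibits secreted metalloproteinases, and its signals were 11.32, 11.77, 11.76 and 11.18 in normoxia, 12.22, 12.00, 11.74 and 12.37 in hypoxia, 11.83, 11.58, 11.99 and 12.15 in the estradiol group and 11.94, 12.03, 12.12 and 11.96 in the fulvestrant group. Hypoxia replicate 3 lay below normoxia replicates 2 and 3, so the groups overlapped, although the difference of 0.57 (SE 0.15), 1.49-fold, was called (adjusted p = 0.0396). Mmp14, a membrane-bound collagenase that activates Mmp2, read 9.40, 9.88, 10.16 and 9.64 in normoxia, 10.30, 10.14, 10.19 and 10.32 in hypoxia, 9.82, 10.03, 10.30 and 9.88 in the estradiol group and 10.26, 10.20, 10.31 and 10.39 in the fulvestrant group. Here hypoxia replicate 2 lay just below normoxia replicate 3. Mmp14 was the last member inside the threshold, with a difference of 0.46 (SE 0.13, adjusted p = 0.04999). Mmp2, a gelatinase, differed by 0.16 (adjusted p = 0.423), and Timp3, an inhibitor held in the matrix, by 0.08 (adjusted p = 0.603).

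**Figure D3:**
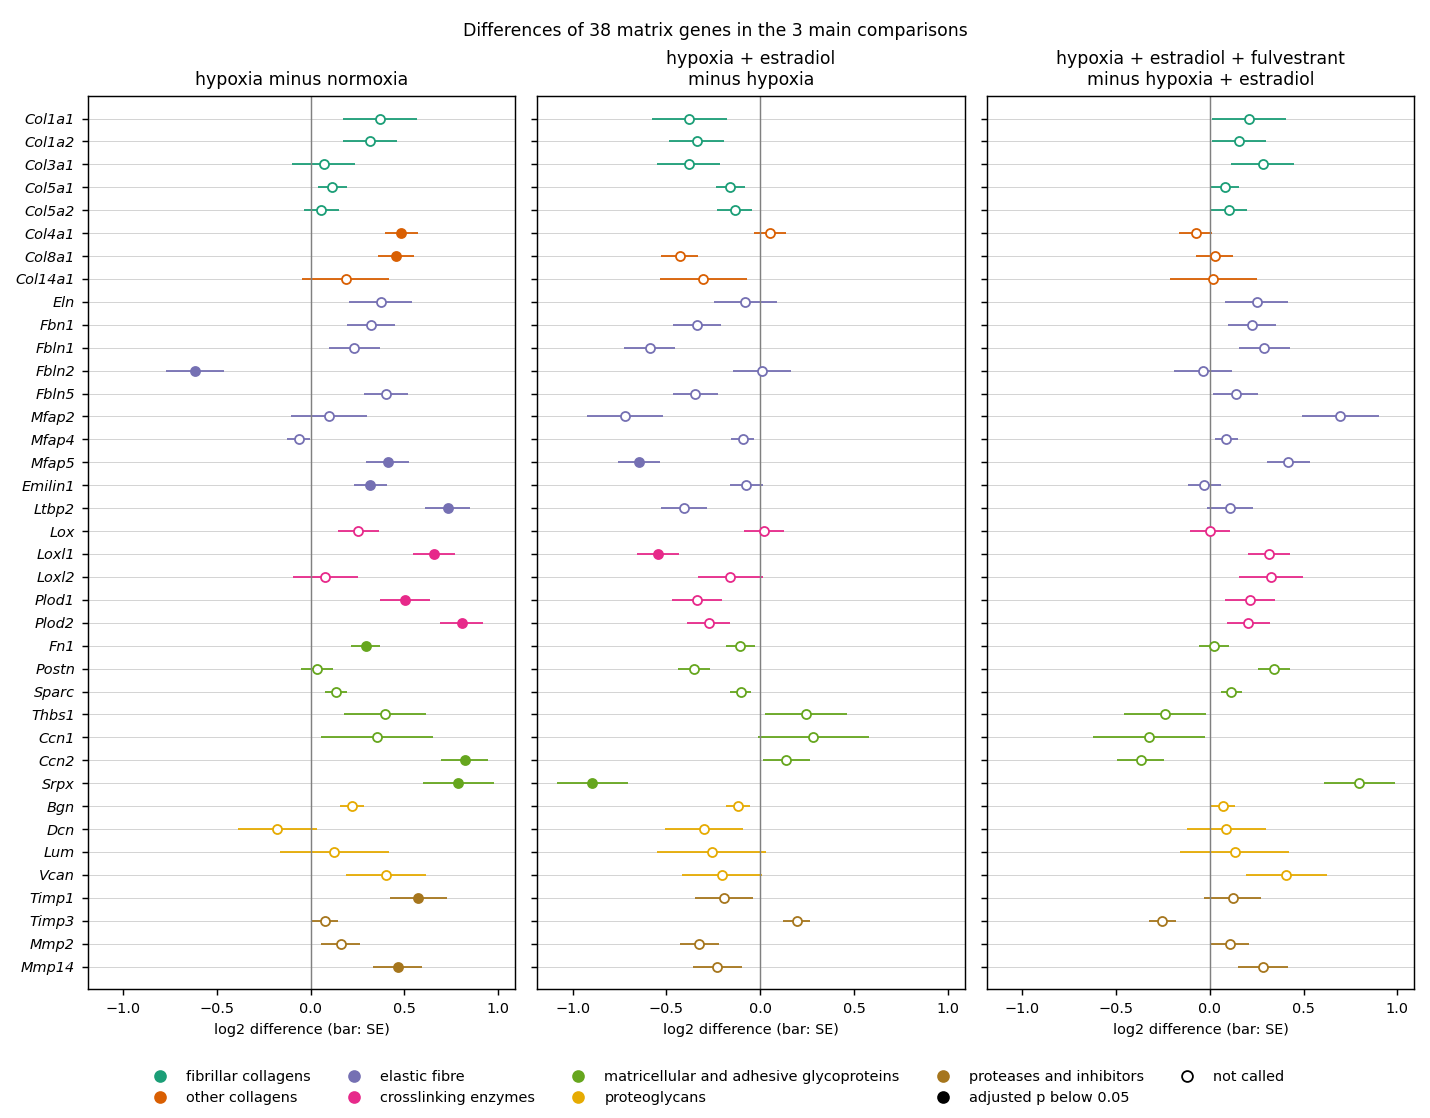
Log2 difference of each of the 38 measured matrix genes in the 3 main comparisons, coloured by role, with bars of 1 SE from the limma fit; filled points passed an adjusted p of 0.05. In the left panel 35 of 38 points lie above 0 and 14 are filled, in the middle panel 31 lie below 0 and 3 are filled, and in the right panel 31 lie above 0 and none is filled.

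The estradiol group was set against hypoxia alone. Its rats also carried osmotic pumps, and whether the hypoxia group had empty pumps is not stated in the labels. An effect of the pump therefore cannot be told apart from one of estradiol. Srpx, Mfap5 and Loxl1 were lower with estradiol and no member was higher. That is 7.89% of the members lower where 0.462% of all genes were called lower, and 0 of 38 higher where 0.31% of all genes were. In either direction, 16 of the 38 members and 2335 of all 14506 genes had an unadjusted p below 0.05 in the limma fit. The median member difference was -0.24, against -0.02 over all genes, and 31 of 38 differences were below 0. All 4 estradiol arrays were below all 4 hypoxia arrays in 15 members, where 3.46% of all genes were apart downwards: Col3a1, Col5a1, Col8a1, Fbn1, Fbln1, Fbln5, Mfap2, Mfap4, Mfap5, Ltbp2, Loxl1, Plod2, Postn, Srpx and Mmp2. Timp3 alone of the members was apart upwards, where 3.19% of all genes were. This comparison and the one before share the 4 hypoxia arrays, so their member values are not independent of each other.

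Srpx fell by 0.90 on the log2 scale (SE 0.19), 1.86-fold (adjusted p = 0.0399). Mfap5 fell by 0.65 (SE 0.11), 1.57-fold (adjusted p = 0.0362), and Loxl1 fell by 0.55 (SE 0.11), 1.46-fold (adjusted p = 0.0387). In the array values above, the estradiol arrays of all 3 overlapped those of normoxia. They ran from 9.51 to 10.27 against 9.51 to 10.28 in Srpx and from 11.59 to 11.95 against 11.39 to 11.95 in Loxl1. In Mfap5 they ran lower, from 9.96 to 10.37 against 10.14 to 10.63. Just outside the threshold were Col8a1 at -0.43 (adjusted p = 0.0541), Fbln1 at -0.59 (adjusted p = 0.0573) and Postn at -0.35 (adjusted p = 0.0641). Mfap2 had a difference of -0.72 but a wide spread in hypoxia, from 9.08 to 10.06 (adjusted p = 0.105).

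By role, the 5 fibrillar collagens all had differences below 0, from -0.14 for Col5a2 to -0.38 for Col1a1 and Col3a1, with 0 called. Of the elastic fibre genes 9 of 10 were below 0, with a median of -0.34. The exception was Fbln2, at 0.01. Ccn2, Ccn1 and Thbs1 were above 0 (0.14, 0.28 and 0.24), as were Col4a1 at 0.05, Lox at 0.02 and Timp3 at 0.20 (adjusted p = 0.209), and none of these 6 was called. Plod2 was at -0.28 (adjusted p = 0.257), so of the crosslinking enzymes Loxl1 passed and Plod1, Plod2, Lox and Loxl2 did not.

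The 3 calls were close to the threshold and depended on single arrays: 0 members were called lower without hypoxia replicate 1, 2 or 4 or estradiol replicate 2 or 3, and 5 without estradiol replicate 1. The count was also 0 when all probe sets were tested, with these 2 groups alone or with normoxia replicate 4 moved to hypoxia, where the member median was -0.13, and 6 with dim genes left out. Without the 2 estradiol arrays high in neutrophil markers the differences were -1.0 for Srpx, -0.63 for Mfap5 and -0.62 for Loxl1, with adjusted p = 0.218 for each. With all arrays they were -0.90, -0.65 and -0.55. The member median was -0.20 without these 2 arrays and -0.24 with all.

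The fulvestrant group was then set against the estradiol group. No group had fulvestrant without estradiol. An effect of fulvestrant itself or of its injections therefore cannot be told apart from an undoing of any effect of estradiol. In limma's fit 0 of 38 members were called in either direction, where 0.0207% of all genes were called higher and 0.0276% lower (9 members and 2142 of all 14506 genes had an unadjusted p below 0.05). The median difference was 0.12, against 0.01 over all genes, and 31 of 38 differences were above 0. Srpx was nearest to a call, at 0.80 (SE 0.19, adjusted p = 0.0783), followed by Postn at 0.34 (adjusted p = 0.0801) and Mfap5 at 0.42 (adjusted p = 0.107). The arrays were apart upwards in 8 members, Fbn1, Mfap2, Mfap4, Mfap5, Loxl1, Plod2, Postn and Sparc, where 4.78% of all genes were, and downwards in Ccn2 and Timp3, where 4.27% of all genes were. This comparison shares the 4 estradiol arrays with the one before, so a low estradiol array enters both, with opposite sign.

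Group means show the course of single members over the 4 groups. For Srpx the group means ± SD (n = 4 in each) were 9.97 ± 0.32 in normoxia, 10.76 ± 0.08 in hypoxia, 9.86 ± 0.34 with estradiol and 10.66 ± 0.36 with fulvestrant. Mfap5 went from 10.39 ± 0.23 to 10.80 ± 0.15, 10.15 ± 0.17 and 10.57 ± 0.13, and Loxl1 from 11.64 ± 0.28 to 12.30 ± 0.12, 11.76 ± 0.15 and 12.07 ± 0.06. Postn was 12.19 ± 0.15 in normoxia, 12.22 ± 0.07 in hypoxia, 11.87 ± 0.15 with estradiol and 12.21 ± 0.09 with fulvestrant, lowest in the estradiol group. Timp3 was highest there, with 12.91 ± 0.14, 12.99 ± 0.11, 13.18 ± 0.06 and 12.93 ± 0.04. Ccn2 stayed high with estradiol at 11.83 ± 0.14 and was 11.46 ± 0.07 with fulvestrant, a difference of -0.37 (SE 0.12) that was not called (adjusted p = 0.175). Col8a1 was 8.14 ± 0.23 in hypoxia, 7.71 ± 0.09 with estradiol and 7.73 ± 0.08 with fulvestrant, a difference of 0.03 at the last step (adjusted p = 0.944).

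Over all 38 members the highest group mean was in hypoxia for 24, in the fulvestrant group for 6, in the estradiol group for 5 and in normoxia for 3. The lowest mean was in normoxia for 20, in the estradiol group for 17, in the fulvestrant group for 1 and in hypoxia for 0. These counts were not made over all genes, so they describe the members only. The median SD within groups was 0.19 for the members and 0.12 over all genes, with Sparc the tightest member at 0.07 and Ccn1 the widest at 0.48.

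**Figure D4:**
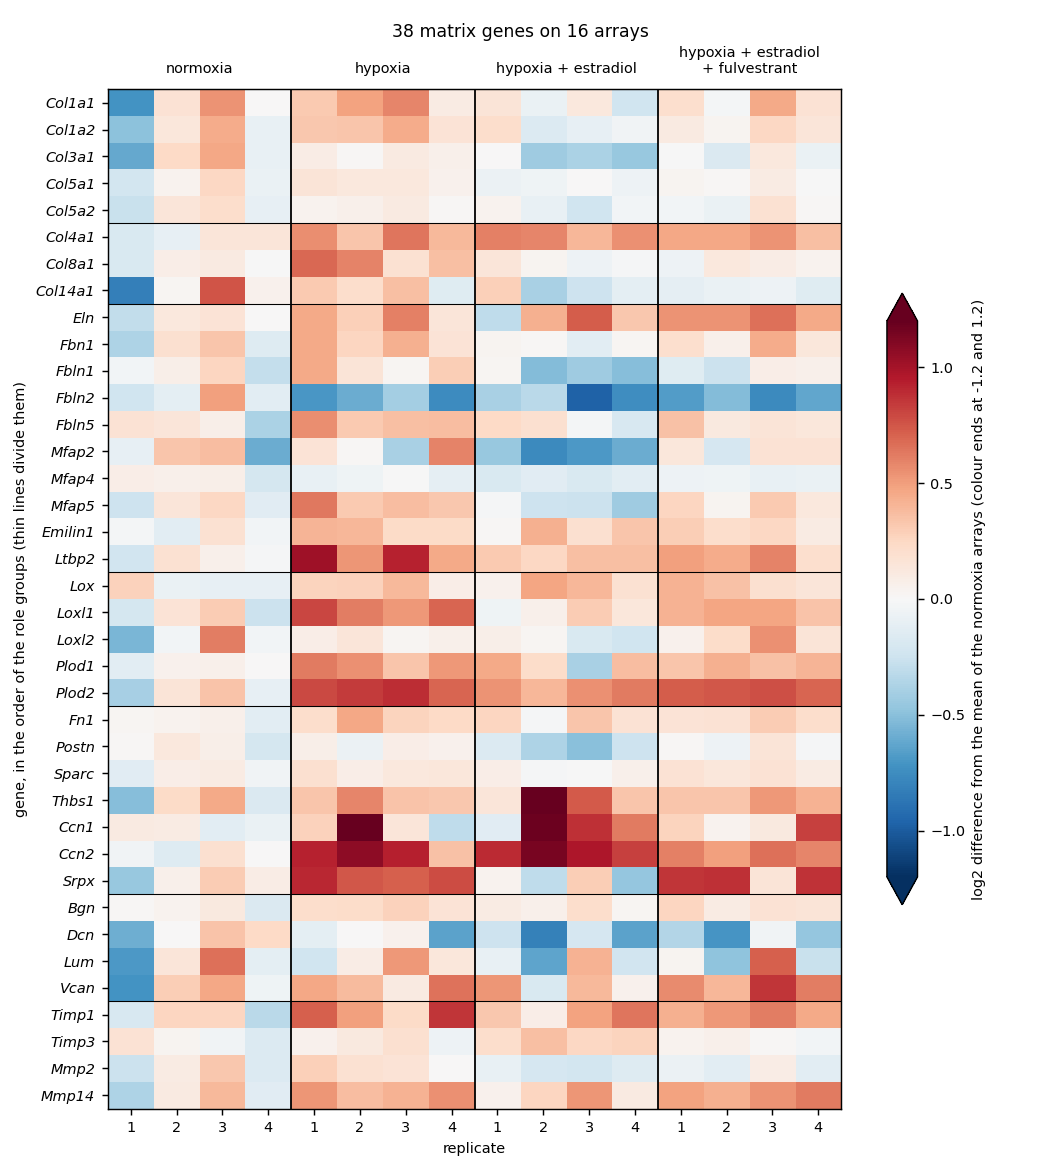
Log2 difference of each matrix gene (rows, by role group) on each of the 16 arrays (columns, by group and replicate) from the mean of the 4 normoxia arrays. Plod2, Ccn2 and Col4a1 are red on all 12 hypoxic arrays and Fbln2 is blue on them, Srpx is deep red on all 4 hypoxia arrays and on 3 of 4 fulvestrant arrays, and paler on fulvestrant replicate 3 and estradiol replicate 3, and normoxia replicate 1 is blue for most fibrillar collagens and proteoglycans.

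The 3 other pairs of groups were secondary. With estradiol against normoxia 4 members were higher, Ccn2 (0.96), Col4a1 (0.53), Plod2 (0.53) and Timp3 (0.27), where 2.87% of all genes were called higher, and Fbln2 (-0.61) and Postn (-0.32) were lower, where 2.34% of all genes were. The adjusted p values were 0.000338 for Ccn2, 0.00238 for Col4a1, 0.0142 for Plod2, 0.0397 for Timp3, 0.0338 for Fbln2 and 0.0389 for Postn. With fulvestrant against normoxia Plod2 (0.73), Ccn2 (0.59), Mmp14 (0.52) and Col4a1 (0.46) were higher, where 1.97% of all genes were, and Fbln2 (-0.64) was lower, where 0.993% of all genes were. All comparisons with normoxia share the same 4 normoxia arrays. The fulvestrant group against hypoxia gave 0 called members, where 0% of all genes were called higher and 0% lower (3 members and 1009 of all genes had an unadjusted p below 0.05 in limma's fit). Without normoxia replicate 1 or 2 the count of members higher in fulvestrant against normoxia was 2, and without estradiol replicate 1 the count higher in estradiol against normoxia was 7. Members lower in estradiol against normoxia numbered 0 without normoxia replicate 2 or 3 or estradiol replicate 3, 1 without estradiol replicate 2 or 4, and 4 without normoxia replicate 4.

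Other genes of matrix biology were taken from 7 lists with 141 measured genes. In hypoxia against normoxia 25 (17.7%) were higher and 4 (2.84%) lower, where 3.21% and 2.43% of all genes were. The share called lower was thus near that of all genes. The median difference was 0.09, against 0.03 over all genes. Enzymes that fold and process collagen had 6 of 24 higher and 2 lower. Fkbp10, a chaperone of procollagen, rose by 0.51, Loxl3, a further lysyl oxidase, by 0.46 and P4ha3, a prolyl hydroxylase, by 0.44, while Tll1, a procollagen C-proteinase, fell by 0.70. Further matricellular genes and proteoglycans had 6 of 29 higher and 0 lower, led by Aspn (asporin) at 1.28 (2.42-fold), Ccn3 at 1.0, Ccn5 at 0.52 and Srpx2 at 0.46. Of the 29, 14 had an unadjusted p below 0.05 in limma's fit, as had 2965 of all 14506 genes. Further proteases and inhibitors had 7 of 32 higher and 1 lower. Ctsk, the collagen-degrading cathepsin K, rose by 0.98, the versican-cleaving Adamts1 by 0.93, Serpine2 by 0.93 and Mmp23 by 0.76.

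Matrix receptors had 4 of 20 higher, of which Itga2 (1.04) is the alpha chain of a collagen receptor, Itga6 (0.75) and Itga7 (0.35) of laminin receptors, and Mrc2 (0.34) takes up collagen fragments. The further collagens had 1 of 16 higher, Col17a1 at 0.23. Further elastic fibre genes had 1 of 9 higher, Efemp2 (fibulin-4, needed for elastin crosslinking) at 0.59, and the basement membrane list had 0 of 11 higher and 1 lower, Lama3 at -0.33. With estradiol against hypoxia 1 of the 141 (0.709%) was higher and 2 (1.42%) lower, where 0.31% and 0.462% of all genes were. Mmp8, a neutrophil collagenase that is also in the neutrophil list, rose by 1.95, and Ccn5 and Vtn (vitronectin) fell by 0.52 and by 0.51. With fulvestrant against estradiol 0 of the 141 were called by limma (27 of them and 2142 of all 14506 genes had an unadjusted p below 0.05). Of all genes 0.0207% were called higher and 0.0276% lower there.

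In whole lung, fewer cells of a type and less RNA per cell cannot be told apart, and marker lists moved with some of the results. Of the 102 measured markers 16.7% were called higher and 8.82% lower in hypoxia, where 3.21% and 2.43% of all genes were. With estradiol against hypoxia 9.8% were higher and 3.92% lower, where 0.31% and 0.462% of all genes were. With fulvestrant against estradiol 0% were higher and 0.98% lower, where 0.0207% and 0.0276% of all genes were. In hypoxia 4 of 11 smooth muscle markers rose (Des by 0.75, Cnn1 by 0.62, Smtn by 0.60, Tpm2 by 0.52) and 0 fell. Their summed signal was 0.90 to 1.08 times the normoxia mean in normoxia, 1.14 to 1.30 in hypoxia, 1.11 to 1.26 in the estradiol group and 1.30 to 1.64 in the fulvestrant group. Of 8 pericyte markers 3 rose in hypoxia (Trpc6, Cspg4 and Pdgfrb, by 0.66, 0.42 and 0.28) and 2 fell with estradiol (Rgs5 by 0.76 and Pdgfrb by 0.35). The summed pericyte signal was 0.95 to 1.04 in normoxia, 1.18 to 1.37 in hypoxia, 0.87 to 1.06 in the estradiol group and 1.10 to 1.27 in the fulvestrant group. The 0.87 was estradiol replicate 3 alone, with estradiol replicates 1, 2 and 4 at 1.06, 1.03 and 1.04.

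Of the fibroblast markers, which include the member Mfap4, 0 of 12 were called in hypoxia and 1, Meox2, fell by 0.83 with estradiol. In hypoxia against normoxia 2 of the 12 had an unadjusted p below 0.05 in limma's fit, as had 2965 of all 14506 genes. Their summed signal was 0.93 to 1.09 in normoxia, 0.96 to 1.02 in hypoxia, 0.90 to 0.94 in the estradiol group and 0.95 to 1.02 in the fulvestrant group. Macrophage markers had 6 of 11 higher in hypoxia, among them Gpnmb (0.90), Fabp4 (0.88), Chi3l1 (0.79) and C1qc (0.67), and 1, Mrc1, was higher with estradiol (0.49) and lower with fulvestrant (-0.57). Lymphocyte markers had 6 of 10 lower in hypoxia, led by Gzma (-1.32), Klrd1 (-1.04), Prf1 (-0.98) and Il7r (-0.78), and Il7r was higher with estradiol (0.90). Neutrophil markers had 8 of 10 higher with estradiol, led by Mmp8 (1.95), Fcar (1.82), S100a8 (1.74) and Retnlg (1.73).

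Of 11 endothelial markers 3 rose in hypoxia (Robo4 by 0.80, Egfl7 by 0.73, Emcn by 0.69), 2 fell, Clec14a (-0.60) with the larger change, and Robo4 fell by 0.39 with estradiol. Epithelial markers had 1 of 10 lower in hypoxia, Hopx at -0.22, and the erythrocyte list had 1 of 6 higher, Hemgn at 1.27. The 5 mesothelial and 8 cartilage markers had 0 calls in the 3 main comparisons, and 0 and 1 of them an unadjusted p below 0.05 in hypoxia against normoxia, where 2965 of all 14506 genes had one. Summed signals were 0.45 to 0.83 in hypoxia and 1.18 to 2.57 with estradiol for neutrophils, 1.13 to 1.69 in hypoxia for macrophages, 0.51 to 0.64 in hypoxia for lymphocytes and 0.89 to 3.89 in hypoxia for erythrocytes, in the same units. The erythrocyte value of 0.89 was hypoxia replicate 3 alone, with hypoxia replicates 1, 2 and 4 at 3.89, 3.47 and 3.64. Some cartilage markers are also in the lists of further matrix genes. Array signals have no true zero, so no marker could be called absent. The part of cell composition in the matrix differences was not tested.

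**Figure D5:**
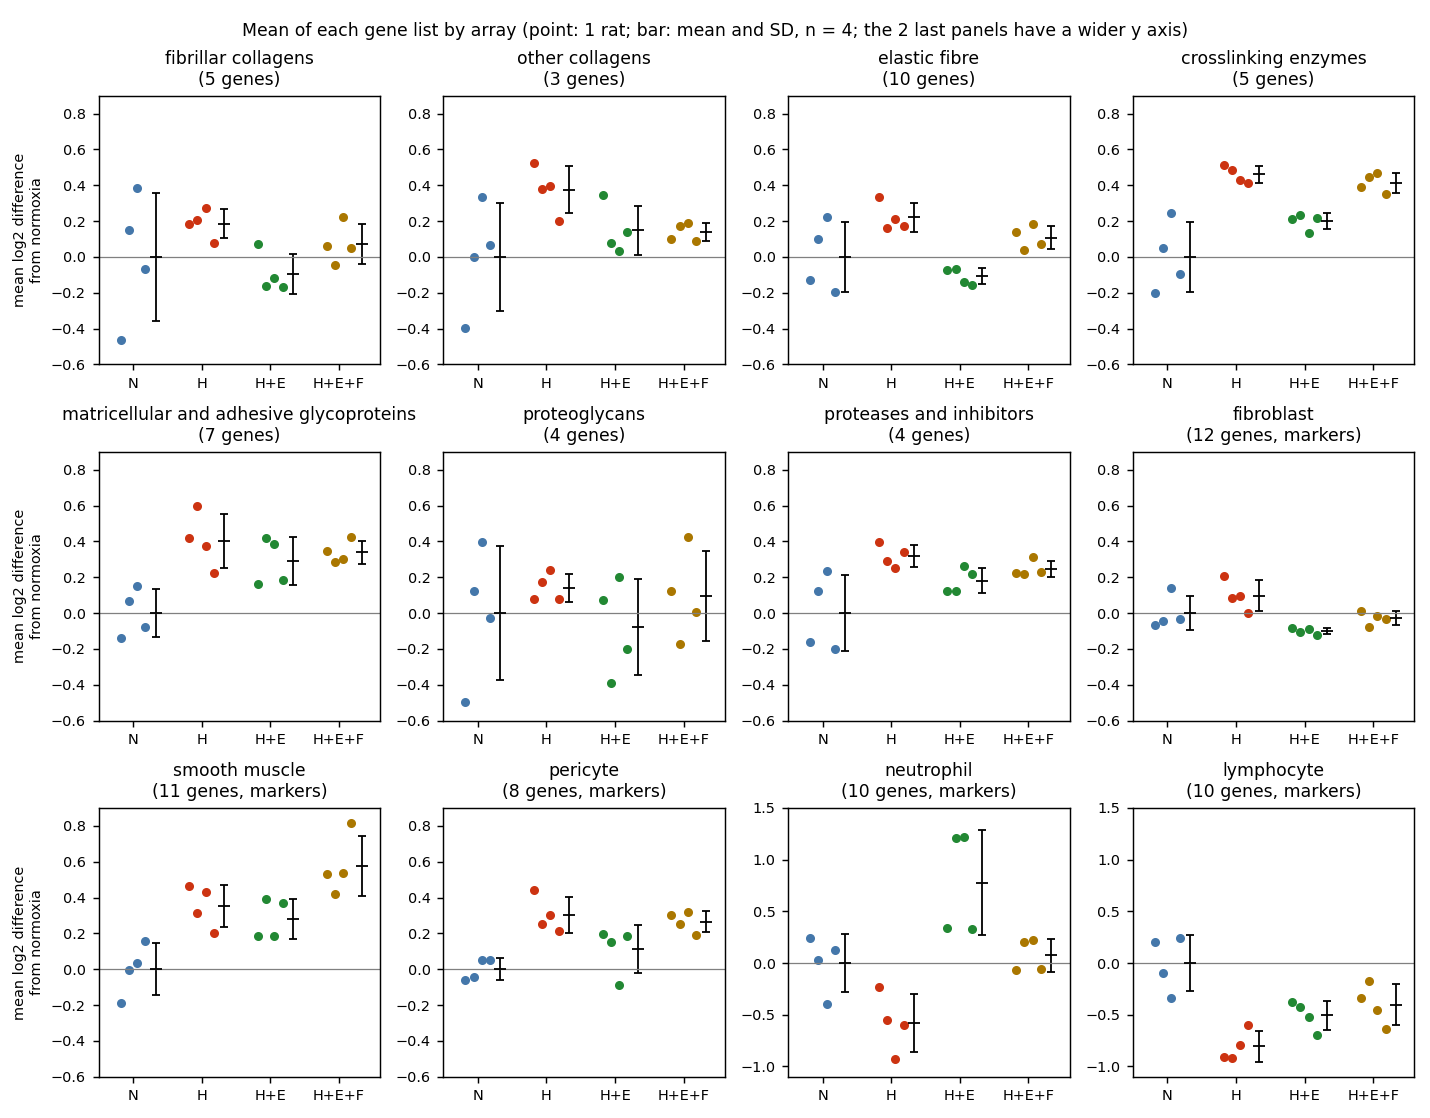
Mean log2 difference from normoxia over the genes of each role group and of 5 marker lists, 1 point per rat, with mean and SD (n = 4) beside them; the neutrophil and lymphocyte panels have a wider axis. Crosslinking enzymes are higher on all 4 hypoxia arrays than on any normoxia or estradiol array. Fibroblast markers lie between -0.12 and 0.21, with all 4 estradiol arrays, at -0.12 to -0.09, below every other array. Smooth muscle markers have their highest group mean in the fulvestrant group.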

How the data were processed

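The authors deposited log2 RMA values per probe set, made with RMA and Partek per the submitters' processing notes; versions, settings and a genome build are not given in the sources used here. RMA equalises array distributions, so a shift shared by most genes is not seen, and differences of dim probe sets are compressed. Per the labels, RNA integrity numbers were at least 9 and lung vessels were flushed with saline. The table held 29214 probe sets: 15310 with 1 symbol, 323 with several and 13581 with none. The brightest probe set was kept for 527 genes with several, which left 14506 genes, and 14480 of them matched the RefSeq gene table. No member had more than 1 probe set. Array medians lay between 7.69 and 7.77.

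One limma 3.58.1 fit (R 4.3.3) had 4 group means over 16 arrays, with empirical Bayes moderation and Benjamini-Hochberg adjustment over all 14506 genes. It was tested on simulated data. Arrays carry no depth; 4 arrays per group limit the precision, and p-values cover the spread between these rats. Members, lists, tests and alternatives were chosen with earlier results of these data known. By the rule for named genes, members called in a main comparison, or with the largest hypoxia difference of their group, have every array printed, and from other lists up to 4 called genes with the largest differences are named. Replicates were numbered as submitted and are not pairs. Alternatives were scaling, repeated quantile normalization, a filter on dim genes, probe set handling, moderation, arrays in the fit, the label conflict and leaving out arrays. Protein sequences were not used here.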

Additional observations from a re-analysis of the deposited data

Results flagged for a closer look

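In 9 of 152 sets of 4 arrays, 1 per member and group, a single array lay far from the other 3 by Dixon's test; chance gives about 1 in 20, here 7.6. Members called between hypoxia and normoxia account for 3 of them. Srpx measured 10.12 on fulvestrant replicate 3 against 10.83 to 10.85 on the others, Mfap5 measured 11.02 on hypoxia replicate 1 against 10.71 to 10.76, and Fbln2 measured 8.95 on normoxia replicate 3 against 8.22 to 8.35. Among the elastic fibre genes, Fbn1 was 10.98 on estradiol replicate 3 (others 11.11 to 11.14), Mfap2 was 9.27 on fulvestrant replicate 2 (others 9.61 to 9.65) and Mfap4 was 13.58 on normoxia replicate 4 (others 13.85 to 13.87). Col3a1 was 10.88 on estradiol replicate 1 (others 10.42 to 10.50), Lox was 11.69 on normoxia replicate 1 (others 11.31 to 11.33) and Thbs1 was 11.82 on hypoxia replicate 2 (others 11.55 to 11.57).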

How the results depend on the processing

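No called difference of a named gene, member or not, changed sign under any alternative run; 384 repeats missed the threshold and 992 stayed past it. The count of members higher in hypoxia against normoxia, 13, was 7 with all probe sets tested, 7 with the 2 groups alone and 0 with normoxia replicate 4 counted as hypoxia, and 6 to 15 with 1 array left out; the count lower, 1, was 0 under the latter 2 and 0 to 1 with 1 array left out. Members lower with estradiol against hypoxia, 3, were 6 with the dimmest genes left out, 0 with all probe sets, the 2 groups alone, replicate 4 as hypoxia or without estradiol replicates 2 and 3, and 0 to 5 with 1 array left out. In estradiol against normoxia the 4 higher were 2 with the 2 groups alone or replicate 4 as hypoxia (3 to 7 with 1 array left out), and the 2 lower were 1 with median-centred arrays and 0 with all probe sets, the 2 groups alone or without estradiol replicates 2 and 3 (0 to 4). In fulvestrant against normoxia the 4 higher were 1 with replicate 4 as hypoxia and 8 without estradiol replicates 2 and 3 (2 to 6), and the 1 lower was 0 with all probe sets or replicate 4 as hypoxia (0 to 1). Testing all probe sets adjusts over more tests and the 2 groups alone leave fewer arrays for the spread; other causes were not tested. The member medians with 1 array left out ran from 0.22 to 0.40 in hypoxia against normoxia, from -0.28 to -0.19 and from 0.09 to 0.15 in the next 2 comparisons, and from -0.04 to 0.13 in estradiol against normoxia; with replicate 4 as hypoxia the first 2 medians were 0.18 and -0.13, and those of estradiol against normoxia and fulvestrant against hypoxia were 0.0047 and -0.01, from 0.03 and -0.08. Normoxia and hypoxia arrays that were left out leave 3 against 4. No paired analysis was possible because the labels carry no shared replicate numbers.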
